A study of Mus musculus with 6 samples.

Results

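Oxidative phosphorylation subunits, the nuclear-encoded protein chains of respiratory complexes I to IV and of ATP synthase (complex V), were read in microdissected intestinal crypts of mice with and without loss of imprinting of Igf2. Members were taken by gene symbol: names starting with Ndufa, Ndufb, Ndufc, Ndufs or Ndufv for complex I, Sdh for complex II, Uqcr and Cyc1 for complex III, Cox4 to Cox8 for complex IV and Atp5 for complex V, without the Ndufaf assembly factors. The rule found 89 genes, of which 69 had a probe, among 37939 genes and unnamed probes tested in all. Complex I had 29 of 41 genes, complex II 3 of 4, complex III 6 of 9, complex IV 16 of 18 and complex V 15 of 17. The 20 genes with no paired probe, not analysed here, were Ndufa3, Ndufa4l2, Ndufa11, Ndufb1, Ndufb4b, Ndufb4c, Ndufb6, Ndufb10, Ndufs3, Ndufs5, Ndufs6, Ndufv2, Sdha, Uqcr10, Uqcrfs1, Uqcrq, Cox7b, Cox8c, Atp5c1 and Atp5h. The symbol decides the complex here, so Ndufa4 counts with complex I although its protein is known as a subunit of complex IV, and Cox7a2l, known for its part in joining respiratory complexes, counts with complex IV.

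Complex I takes electrons from NADH and complex II takes them from succinate, both passing them to ubiquinone. Complex III hands them to cytochrome c and complex IV to oxygen, while I, III and IV pump protons that drive ATP synthesis by complex V. In the small intestine, crypts hold the dividing stem and progenitor cells, and absorptive cells on the villi carry dense mitochondria.

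The study compared crypts of 3 LOI(+) mice with crypts of 3 LOI(-) mice, all C57BL/6 and aged 120 days. LOI(+) mice carried, on the chromosome from their mother, a deletion of the H19 gene together with its upstream differentially methylated region, which per the series design activates the maternal Igf2 copy that is otherwise silent. LOI(-) mice were wild type, from the same kind of cross between heterozygous mothers and wild-type fathers. The deletion is inherited and also removes H19, so loss of H19 and gain of Igf2 come together. Crypts were cut by laser from frozen sections of the middle of the small intestine, and each mouse had its own 2-colour array. Crypt RNA was in the Cy3 channel. The Cy5 channel held a commercial standard, Universal Mouse Reference RNA, which mixes equal parts of RNA from cultured lines such as liver, kidney, myoblast and testis.

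The values below are log2 ratios of crypt over reference RNA. All 69 members exceeded 95% of the negative controls on 6 of 6 arrays, so no filter on low values was needed, with mean Cy3 signals from 490 for Cox7b2 to 54461 for Cox6a1 and a median of 6867. The 13 crypt epithelium markers had a median level of 2.56, from 5.82 for Vil1 to -0.035 for Cdx2, and 11 of them were called above the reference. Igf2 had log2 ratios of 0.069, 0.092 and 0.11 on the LOI(+) arrays and 0.16, 0.036 and 0.077 on the LOI(-) arrays, a difference of -0.0024 ± 0.057 (SE, 3 mice a group). That difference had an adjusted p of 0.996 in limma. Igf2 read near background, so this difference does not show whether its RNA changed. H19 was not analysed here for want of a paired probe, so neither gene gives a check of the labels. Image extraction ran over the LOI(-) arrays first, so its order and the group cannot be told apart. LOI(+) 2 had the most features saturated in Cy3, 79, and the most marked as outliers, 146, while LOI(-) 2 had the fewest saturated, 17.

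No subunit gene passed the test between LOI(+) and LOI(-) crypts. In limma, 0 of 69 members had an adjusted p under 0.05, with 0.800 the smallest, and 0% of all features were called. The means of 58 of 69 members were higher in LOI(+) crypts, against 51.3% of all features, and the median difference, LOI(+) minus LOI(-), was 0.11 on the log2 scale against 0.0030 over all features. Among the 1973 features at least as bright as the members' lower quartile, 59.9% were higher and the median difference was 0.044. By unadjusted p under 0.05, 4 members were higher, against 3.93% of all features, and 1 was lower, against 2.22%. The 3 LOI(+) arrays lay above the 3 LOI(-) arrays, with no overlap, for 6 members, against 6.42% of all features, and below them for 0, against 4.98%. These counts of 4 and 6 among 69 were near their backgrounds.

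The members moved together from mouse to mouse, in an order that crossed the groups. The mean deviation of the 69 members from their own 6-array means was -0.12, 0.20 and 0.074 on LOI(+) arrays 1, 2 and 3, and -0.036, -0.20 and 0.087 on LOI(-) arrays 1, 2 and 3. LOI(+) 2 was the highest array for 49 of 69 members and LOI(-) 2 the lowest for 44, with LOI(-) 3 above both other LOI(+) arrays in the mean. LOI(+) 2 was highest and LOI(-) 2 lowest at once for 37 of 69 members, against 8.30% of all features. LOI(+) 2 was highest for 71.0% of the members, against 31.6% of the 1973 bright features. LOI(-) 2 was lowest for 63.8% of the members, against 39.8% of those bright features. The median within-group SD was 0.181 for members, 0.174 for those bright features and 0.0957 for all features tested.

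**Figure D1:**
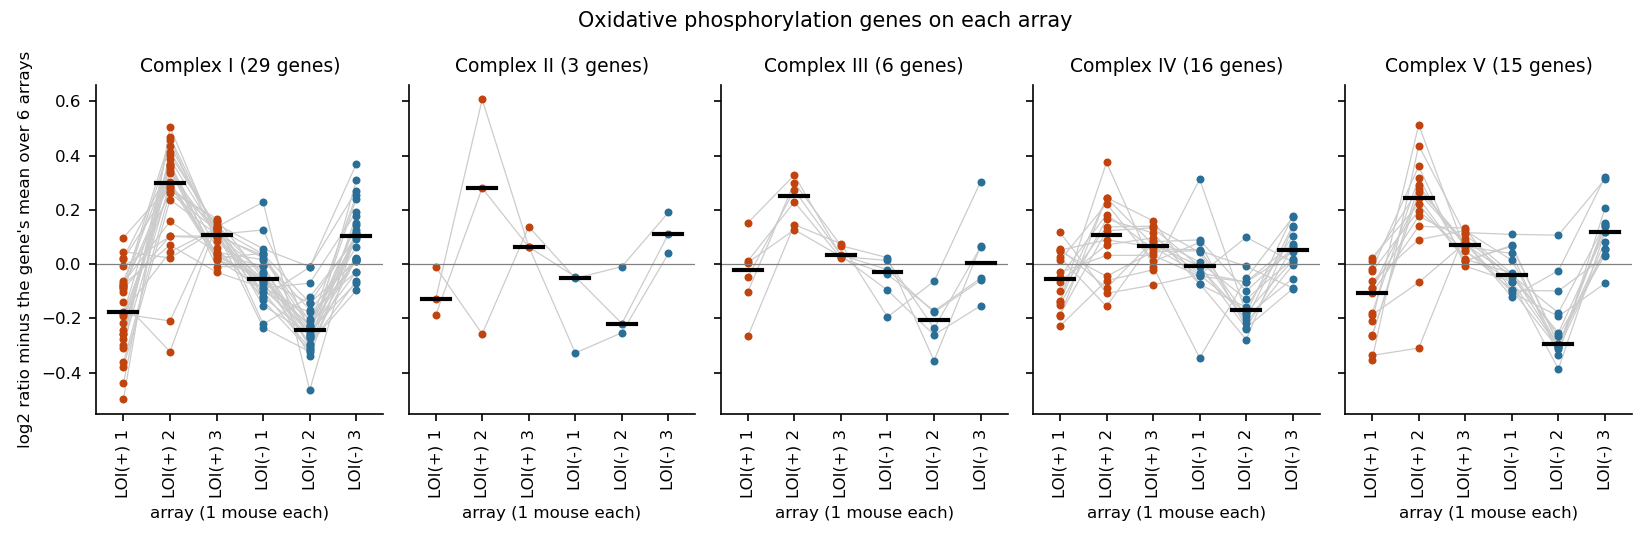
Log2 ratio of each oxidative phosphorylation gene minus its own mean over the 6 arrays, by complex; each point is a gene, grey lines join the points of a gene, black bars are medians, LOI(+) mice are red and LOI(-) mice blue. LOI(+) 2 has the highest median in all 5 complexes and LOI(-) 2 the lowest, while LOI(+) 1 lies below LOI(-) 3 in each.

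With LOI(-) 2 left out, the median difference was 0.029 and 42 of 69 members were higher, and with LOI(+) 2 left out it was 0.038 with 43 higher. Leaving out LOI(+) 1 gave 0.21, with 61 higher, and leaving out LOI(-) 3 gave 0.18, with 61 higher. With LOI(+) 2 and LOI(-) 2 both left out, a choice made after seeing the data, 26 of 69 members were higher in LOI(+) and the median was -0.032. The count by unadjusted p under 0.05 was 14 without LOI(+) 1, 2 without LOI(+) 2, 3 without LOI(-) 2 and 2 without both. The shares of all features in these refits are not given here, so these counts are not read as a result about the members. In each of these fits 0 members were called after adjustment.

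**Figure D2:**
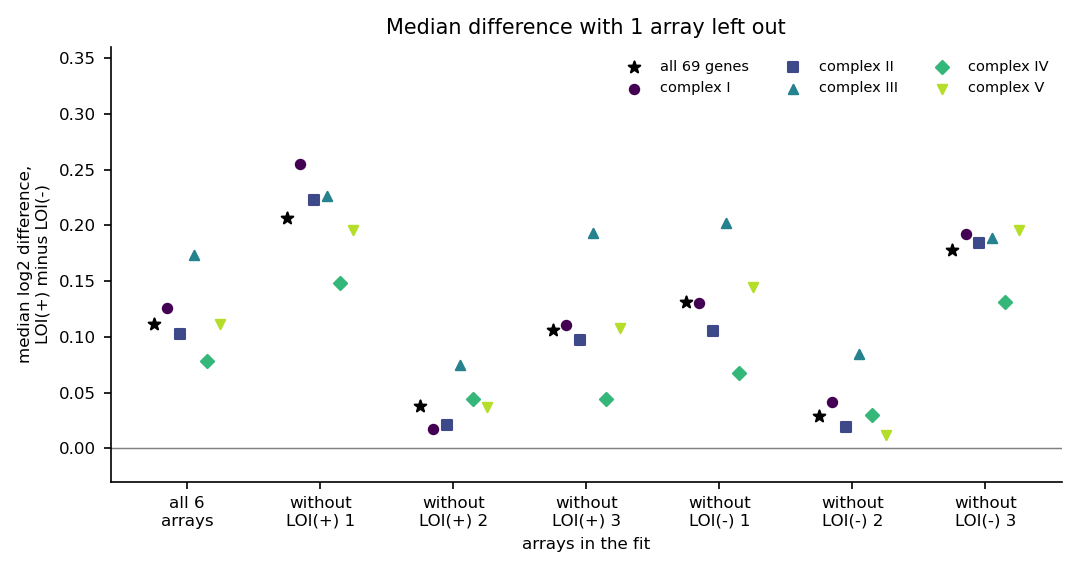
Median log2 difference, LOI(+) minus LOI(-), over the members of each complex and over all 69 genes, with all 6 arrays and with each array left out in turn. The median over all genes lies between 0.029 without LOI(-) 2 and 0.21 without LOI(+) 1, and stays above 0 in each of these 6 fits.

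In complex I, 25 of 29 members had the higher mean in LOI(+), 0 passed the test, and the median difference was 0.13. Ndufa5, an accessory subunit of the arm that reaches into the matrix, had log2 ratios of 0.97, 1.23 and 1.09 in LOI(+) crypts and 0.80, 0.69 and 0.92 in LOI(-) crypts. The groups did not overlap, with LOI(+) 1 and LOI(-) 3 the nearest pair, and the difference was 0.29 ± 0.091 (SE), or 1.23-fold, with an adjusted p of 0.800 in limma. Ndufb7, an accessory subunit of the membrane arm, had 1.24, 1.44 and 1.16 in LOI(+) crypts against 1.05, 0.90 and 1.08 in LOI(-) crypts. Its groups did not overlap either, and it differed by 0.27 ± 0.089 (adjusted p = 0.800 in limma). Ndufb3, another accessory subunit of the membrane arm, had 0.38, 0.92 and 0.55 in LOI(+) crypts and 0.39, 0.17 and 0.36 in LOI(-) crypts, so LOI(+) 1 lay inside the LOI(-) range and the difference of 0.31 ± 0.14 rested most on LOI(+) 2. Ndufa4, named after its values were seen, went the other way by -0.21 ± 0.13, the lowest difference in the complex I list, and LOI(+) 2 was its lowest array at 0.40.

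Complex II, succinate dehydrogenase, had 3 measured members of 4, and 2 of them had the higher mean in LOI(+). Sdhd, a membrane anchor, had 0.79, 1.53 and 0.99 in LOI(+) crypts against 0.60, 0.67 and 0.96 in LOI(-) crypts. LOI(+) 2 stood apart and LOI(+) 1 lay inside the LOI(-) range, so that the largest difference of any member, 0.36 ± 0.19 or 1.28-fold, had an adjusted p of 0.819 in limma. Sdhb, the iron-sulphur subunit, differed by 0.10 ± 0.13 and Sdhc, the other anchor, by -0.086 ± 0.12. Sdhc was lowest on LOI(+) 2, at 0.49, where Sdhd was highest, so the 2 anchors of the same enzyme ran opposite ways on that array.

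Complex III had a median difference of 0.17, or 0.075 without LOI(+) 2, with 5 of 6 members higher in LOI(+) and 0 called. Cyc1, the cytochrome c1 haem subunit that passes electrons to cytochrome c, had 0.40, 0.58 and 0.28 in LOI(+) crypts and 0.15, -0.010 and 0.097 in LOI(-) crypts. All 3 LOI(+) arrays lay above all 3 LOI(-) arrays, and the difference of 0.34 ± 0.089, or 1.27-fold, had the smallest unadjusted p of the 69 members, 0.00664, with an adjusted p of 0.800 in limma. Without LOI(+) 2 and LOI(-) 2 it was 0.22. Uqcr11, a small accessory subunit, had 1.38, 1.60 and 1.39 in LOI(+) crypts and 1.33, 1.20 and 1.32 in LOI(-) crypts, groups that just missed each other, with a difference of 0.17 ± 0.080. Uqcrb, a subunit at the quinone-binding region, differed by 0.17 ± 0.095 with overlapping groups, while the core subunit Uqcrc1 was at -0.030 ± 0.16.

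Complex IV, cytochrome c oxidase, had a median difference of 0.078, or 0.030 without LOI(-) 2, with 13 of 16 members higher in LOI(+) and 0 called. Cox8a, the ubiquitous form of the smallest subunit, had 0.46, 0.50 and 0.48 in LOI(+) crypts and 0.37, 0.23 and 0.43 in LOI(-) crypts. The 3 LOI(+) arrays read close together and above all LOI(-) arrays, and the difference was 0.14 ± 0.066 (adjusted p = 0.819 in limma). The Cy5 spot was saturated on LOI(+) 3, so its ratio is an upper bound and its margin over LOI(-) 3 was not measured. Cox7a2l differed by 0.16 ± 0.100. Cox4i2, the isoform of subunit 4 known for low oxygen and lung, was the lowest of the complex at -0.21 ± 0.13, with -0.61, -0.44 and -0.40 in LOI(+) crypts and -0.070, -0.56 and -0.20 in LOI(-) crypts, LOI(-) 2 lying among the LOI(+) arrays.

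In complex V, ATP synthase, 13 of 15 members had the higher mean in LOI(+), with a median difference of 0.11 and 0 called. Its members of smallest p, Atp5k and Atp5e, lay on opposite sides of 0. Atp5k, subunit e of the membrane part, had 1.48, 1.74 and 1.54 in LOI(+) crypts and 1.36, 1.27 and 1.39 in LOI(-) crypts, with no overlap and a difference of 0.25 ± 0.082 (adjusted p = 0.800 in limma). Atp5e, the epsilon subunit of the rotor stalk, had 0.20, 0.23 and 0.66 in LOI(+) crypts and 0.65, 0.65 and 0.85 in LOI(-) crypts. LOI(+) 3 reached into the LOI(-) range while LOI(+) 1 and 2 lay far below it, and the difference of -0.35 ± 0.13, or 0.783-fold, was the lowest of the 69 members (adjusted p = 0.803 in limma). Atp5a1, the alpha subunit of the catalytic head, differed by 0.17 ± 0.098. In the delta subunit Atp5d, of the same stalk as Atp5e, the difference was -0.12 ± 0.13, so the 2 lower members of complex V were both stalk subunits, observed after their values were seen.

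**Figure D3:**
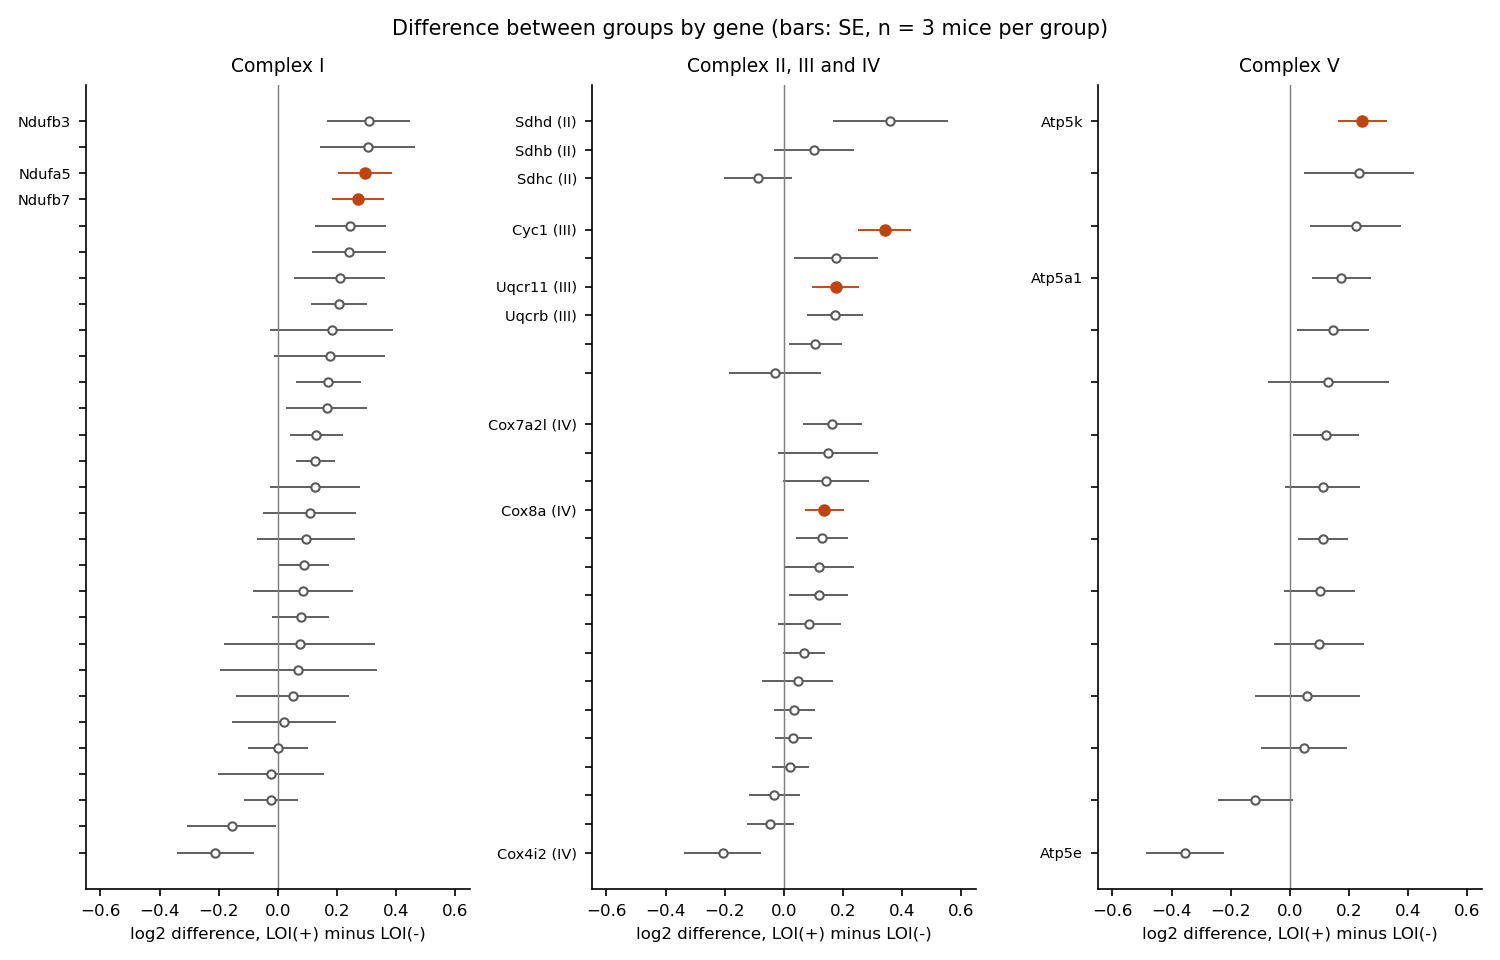
Log2 difference, LOI(+) minus LOI(-), for each of the 69 genes with its standard error (n = 3 mice per group); filled red points are the 6 genes whose LOI(+) and LOI(-) arrays did not overlap, and names are written for these and for the 3 genes of smallest p in each complex. The points run from -0.35 for Atp5e to 0.36 for Sdhd, with 58 to the right of 0.

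Markers of cells near the crypts also differed between arrays. The Cy3 signals of the 11 measured villus enterocyte markers of 18 written, summed without scaling, were 50861 to 75627 on LOI(+) arrays, highest on LOI(+) 2, and 42076 to 50940 on LOI(-) arrays, lowest on LOI(-) 2. The unscaled sums of the 13 crypt epithelium markers had the same highest and lowest arrays. They ran from 132071 to 169190 in LOI(+) and from 114325 to 154146 in LOI(-). All 11 villus markers lay above the negative controls on at least 3 arrays, 8 were higher in LOI(+), and their median difference was 0.19. On the log2 ratio scale, their mean deviation was 0.13 on LOI(+) 2 and 0.12 on LOI(-) 2, the 2 arrays at opposite ends for the subunits, and was lowest on LOI(-) 1, at -0.42. Of the upper small intestine markers, 4 of 6 were higher in LOI(+), with sums of 13668 to 21483 in LOI(+) and 8572 to 15297 in LOI(-). Fabp1, Rbp2 and Slc5a1 stood in both this list and the villus list. The unshared genes differed by 0.33 for Slc2a2, -0.16 for Slc40a1 and -0.18 for Cyp3a11. Of the lower small intestine markers 0 of 6 were higher, with sums of 4035 to 4531 in LOI(+) and 4058 to 6342 in LOI(-). Only 1 of 7 Paneth cell markers and 1 of 7 goblet cell markers were higher, with median differences of -0.16 and -0.11. Striated muscle markers, of a tissue rich in these subunits, summed to 11795 to 14347 in LOI(+), lowest on LOI(+) 2, and 13493 to 14955 in LOI(-), with 2 of 8 higher. The part of these shifts in the subunit values was not tested, and fewer cells of a type cannot be told apart from less RNA per cell in such tissue samples.

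Against the reference RNA, most subunit genes were higher in crypts after loess, though not after median centring of the arrays. Of the 69 members, 45 were called higher than the reference at an adjusted p under 0.05 in limma, against 31.9% of all features, and 10 lower, against 32.6%, while 14 were not called. The median level was 0.48, or 1.39-fold, against -0.0013 over all features. Complex II had the highest median, 0.92, followed by 0.80 in complex III, 0.58 in complex V, 0.36 in complex IV and 0.21 in complex I. With saturated probes left out, the complex IV median was 0.30 and the order of the complexes was the same. That order held on 5 of 6 arrays, with complexes II and III changing places on LOI(-) 1. The within-group SD of an array mean was 0.16 for complex II and 0.13 for complex III. This SD includes shifts that both complexes shared on an array, so it does not measure the spread of the gap between them. Whether these neighbours differed was not tested. Without background correction their medians changed places, at 0.78 for complex II and 0.88 for complex III. Complex I lay below complex IV on 6 of 6 arrays.

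The size of these levels depended on how the arrays were scaled. With each array centred on its median in place of loess, the members' median level was -0.011, with 25 called higher and 27 lower. The shares of all features called on that scale are not given here, so these counts have no background beside them. Bright features as a whole sat lower on that scale. The median level of the 1973 bright features was -0.020 with loess and -0.50 with median centring, so the members' median lay about as far above theirs on both scales. The order of the 5 complexes was the same on both, with medians after centring of 0.50, 0.30, 0.057, -0.072 and -0.20 for complexes II, III, V, IV and I. All arrays had the same dye orientation, so a gene's dye effect cannot be told apart from its level, and the test covers the spread between arrays only.

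**Figure D4:**
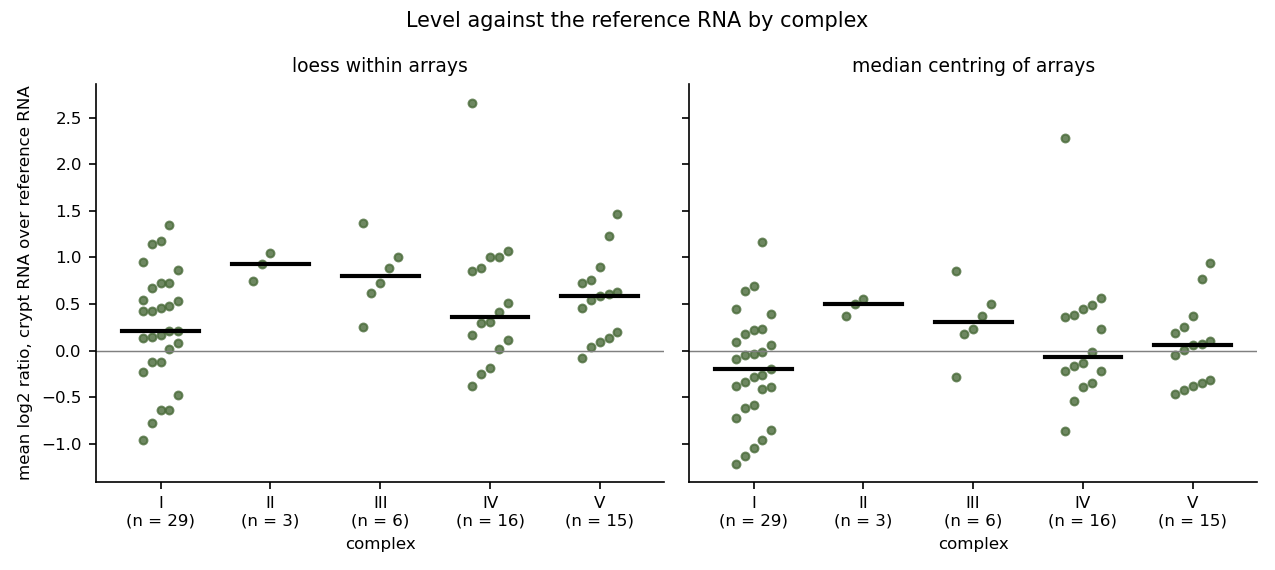
Mean log2 ratio of crypt RNA over reference RNA for each gene, by complex, after loess within arrays (left) and after median centring of arrays (right); black bars are medians. Complexes I and IV have the lowest medians on both scales, and Cox7a1 stands above all other genes on both.

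Levels in complex I ran from -0.96 to 1.34, with 15 members called higher, 7 lower and 7 not called. Ndufab1, the mitochondrial acyl carrier protein that also serves fatty acid synthesis, had 1.34 ± 0.068 (SE), 2.54-fold over the reference (adjusted p = 2.6e-06 in limma). At the other end Ndufv3, an accessory subunit of the NADH-binding module, was 1.95-fold lower than the reference, with -1.04, -0.89 and -0.99 in LOI(+) crypts and -1.05, -1.03 and -0.77 in LOI(-) crypts, although its mean Cy3 signal of 520 was close to the negative control percentile of 439 to 449. Ndufa12, an accessory subunit of the matrix arm, was 1.71-fold lower with a level of -0.77 ± 0.13. Its arrays ranged from -1.21 to -0.36 in LOI(+) crypts and from -1.24 to -0.55 in LOI(-) crypts, so the groups covered nearly the same span.

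All 3 members of complex II and all 6 of complex III were called higher. In complex II the levels were 1.05 ± 0.067 for Sdhb, 0.92 ± 0.097 for Sdhd and 0.75 ± 0.058 for Sdhc (SE). Complex III ran from 0.25 for Cyc1 to 1.37 for Uqcr11, which was 2.58-fold over the reference (adjusted p = 1.43e-07 in limma), with the core subunits Uqcrc2 at 1.00 and Uqcrc1 at 0.62. Cyc1, the member with the smallest p between groups, was thus the lowest of its complex in level, and median centring moved it to -0.28. In complex V, 10 of 15 were called higher and 0 lower, led by Atp5k at 1.46, or 2.76-fold (adjusted p = 1.18e-07 in limma), and Atp5mpl, a small membrane subunit, at 1.23. The delta subunit Atp5d, at -0.079, and Atp5g2, at 0.042, were the lowest and were not called. Atp5d was called lower after median centring, at -0.35, and without LOI(-) 3, at -0.14.

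Cox7a1, the isoform of subunit 7a known from heart and skeletal muscle, had the highest level of all 69 members at 2.66 ± 0.085, 6.32-fold over the reference (adjusted p = 2.29e-07 in limma). Its log2 ratios were 2.52, 3.04 and 2.65 in LOI(+) crypts and 2.32, 2.61 and 2.83 in LOI(-) crypts. The widely expressed Cox7a2 had 0.80, 0.93 and 0.96 in LOI(+) crypts and 0.87, 0.73 and 0.88 in LOI(-) crypts. These are ratios to a reference in which each gene has its own level, so they do not rank transcript amounts, and the mean Cy3 signals were 3086 for Cox7a1 and 8127 for Cox7a2 on different probes. The striated muscle markers had a median level of -0.23, with Ckm at -0.019 and Acta1 at -0.034. The 10 smooth muscle markers had a median level of -0.54, from -3.18 for Cald1 to 1.61 for Mylk. Of these markers, 8 lay above the negative controls on at least 3 arrays, while Cald1 did so on 2 arrays and Lmod1 on 0. The reference includes myoblast RNA, so these ratios do not show whether muscle RNA was in the crypt samples. Its part in the Cox7a1 level was not tested.

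Next in level in complex IV was Cox7c, a small subunit with no paralog among the members, at 1.07. The other muscle isoforms did not share the level of Cox7a1. Cox6a2, the muscle form of subunit 6a, was at -0.25 ± 0.031 and Cox8b, the muscle form of subunit 8, at 0.019 ± 0.039. Cox6a1, their widely expressed counterpart in subunit 6a, read 1.01, but its Cy5 spots were saturated on 6 of 6 arrays, and the Cy3 spot on 1, so it is not a measured ratio. The other Cox6a1 probes, not saturated in Cy5, read 0.75 and -0.084. The testis isoforms Cox6b2 and Cox7b2 were at 0.16 and -0.19, with Cox6b1 at 0.51. The Cox7b2 probe had a mean Cy3 signal of 490, also close to the negative controls. Cox4i1 was at 0.11 and not called, and Cox4i2 at -0.38 was 1.30-fold lower than the reference (adjusted p = 0.0017 in limma), a call lost with the mean of its 2 probes, at -0.12. The dimmer Cox4i2 probe had a mean Cy3 signal of 512, close to the negative control percentile of 439 to 449. The paralogs' probes shared no run of more than 8 of 60 bases in the 10 pairs set side by side. Probes were compared with each other and not with the paralogs' transcripts, so binding of a probe to a paralog's RNA was not tested.

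**Figure D5:**
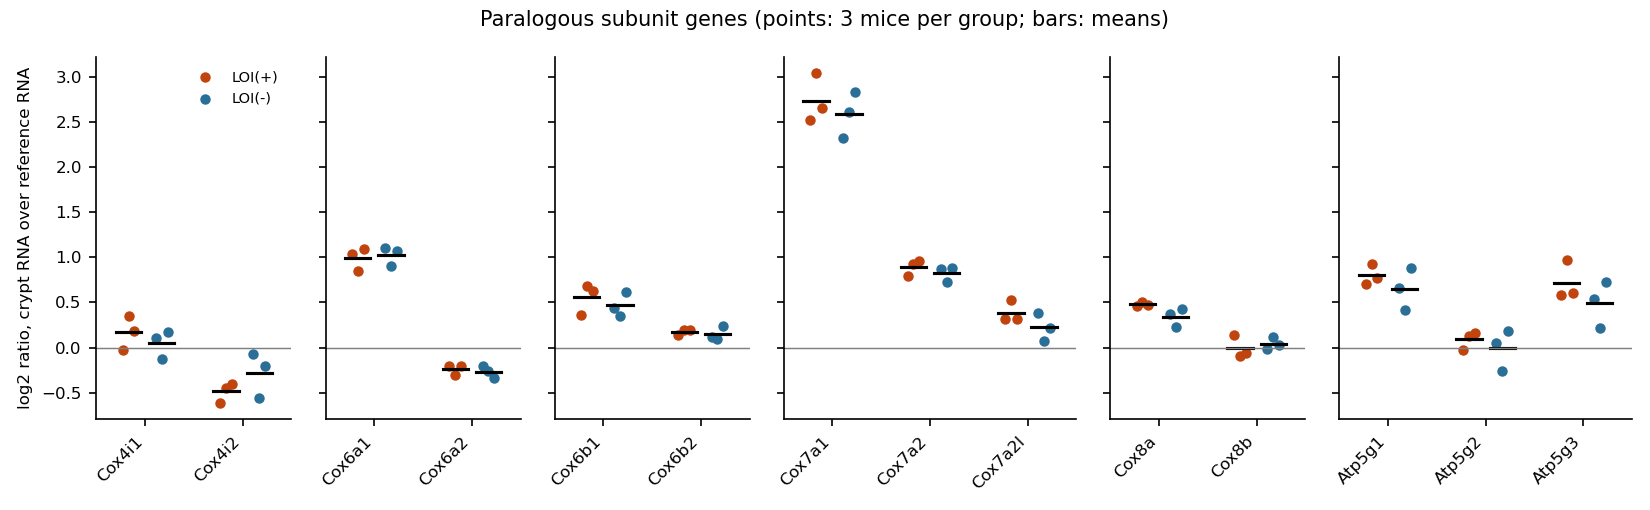
Log2 ratio of crypt RNA over reference RNA for paralogous subunit genes of complexes IV and V; points are single mice, LOI(+) in red left of LOI(-) in blue, and bars are group means. Cox7a1 lies between 2.32 and 3.04 in all 6 mice, and among these genes only in Cox8a, with a saturated reference spot on LOI(+) 3, do the plotted groups not overlap.

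The 3 genes for subunit c of the ATP synthase ring, which encode the same mature protein, were each read by a probe of their own. Whether these probes also bind RNA of the other subunit c genes was not tested. Atp5g1 had 0.70, 0.92 and 0.77 in LOI(+) crypts and 0.66, 0.42 and 0.88 in LOI(-) crypts, and Atp5g3 had 0.59, 0.97 and 0.60 in LOI(+) crypts and 0.54, 0.22 and 0.72 in LOI(-) crypts. Atp5g2 lay lower, with -0.021, 0.13 and 0.17 in LOI(+) crypts and 0.056, -0.26 and 0.18 in LOI(-) crypts. Its ratio to the reference was below that of both other genes on every array, and LOI(-) 2 was the lowest array for all 3. 0 of these 3 genes passed the test between groups.

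Of the 22 members with more than 1 probe, 15 had the same sign of difference and 14 the same sign of level on every probe, with a median spread in level of 0.20 and a widest one of 1.09, in Cox6a1. The probes of Atp5g1 and Atp5k are shown because the first pair overlaps in sequence and gave like values while the second pair does not overlap and gave opposite differences. Capitals mark the 37 bases that the Atp5g1 probes share, and the brighter probe of each gene, which gives the values above, comes first.
Atp5g1 brighter: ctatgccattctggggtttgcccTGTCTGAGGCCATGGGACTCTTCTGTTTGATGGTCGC
Atp5g1 dimmer: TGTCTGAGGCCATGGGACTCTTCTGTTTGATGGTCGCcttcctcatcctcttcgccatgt
Atp5k brighter: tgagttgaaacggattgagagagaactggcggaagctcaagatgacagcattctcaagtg
Atp5k dimmer: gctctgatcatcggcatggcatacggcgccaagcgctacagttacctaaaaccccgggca
The Atp5g1 probes had levels of 0.73 and 0.78 and differences of 0.15 and 0.10, with mean Cy3 signals of 31228 and 8530. The Atp5k probes had levels of 1.46 and 0.86, differences of 0.25 and -0.18, Cy3 signals of 26587 and 2991, and G or C at 46.7% and 58.3% of their 60 bases. The non-overlap between groups given for Atp5k therefore rests on its brighter probe. Members whose probes fell on both sides of the reference included Cox4i2, at -0.38 and 0.14, Atp5g2, at 0.042 and -0.30, and Atp5a1, whose probes lay 0.79 apart. The Cox4i2 value of 0.14 came from a probe close to the negative controls.

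Promoter windows of 300 bases, 250 before and 50 after the transcript start, were on hand in RefSeq (GRCm38.p6) for 55 of the 69 members. They were searched on both strands for motifs of factors known to drive respiratory genes: GCGCATGCG for NRF1, CCGGAAGT for GABPA (NRF2) and AAGATGGCG for YY1. The NRF1 motif stood in 7 of 55 members, or 12.7%, against 2.61% of 17492 protein-coding genes, and the YY1 motif in 6, or 10.9%, against 2.14%. The GABPA motif stood in 3, or 5.45%, against 5.69%, and any of these motifs in 15, or 27.3%, against 9.84%. The YY1 motif was found in 4 members of complex I and 2 of complex V, and the GABPA motif in 2 of the 3 complex III windows. These are matches of letters, not measured binding.

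Of the 6 members whose LOI(+) arrays all lay above the LOI(-) arrays, Cyc1 had no window and 3 held a motif, and those windows are shown with the matches in capitals, all on the minus strand and written from 5′ to 3′ of the gene. In Atp5k (chr5:108434350-108434649) the NRF1 motif reads on both strands, as its letters are nearly a palindrome. In Uqcr11 (chr10:80406772-80407071) a GABPA match lies before an NRF1 match, and in Cox8a (chr19:7217567-7217866) the GABPA motif occurs 2 times on the opposite strand.
Atp5k: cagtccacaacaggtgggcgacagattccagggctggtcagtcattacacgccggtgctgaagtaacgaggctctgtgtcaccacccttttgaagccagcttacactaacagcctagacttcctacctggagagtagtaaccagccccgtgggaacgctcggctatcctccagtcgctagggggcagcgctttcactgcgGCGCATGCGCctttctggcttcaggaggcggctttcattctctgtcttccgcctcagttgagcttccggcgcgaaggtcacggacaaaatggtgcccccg
Uqcr11: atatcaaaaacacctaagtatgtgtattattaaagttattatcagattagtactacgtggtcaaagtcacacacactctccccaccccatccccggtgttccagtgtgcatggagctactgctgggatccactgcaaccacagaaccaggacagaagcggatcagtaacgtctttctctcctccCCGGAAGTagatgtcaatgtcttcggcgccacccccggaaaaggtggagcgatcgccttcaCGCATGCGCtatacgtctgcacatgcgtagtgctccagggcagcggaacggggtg
Cox8a: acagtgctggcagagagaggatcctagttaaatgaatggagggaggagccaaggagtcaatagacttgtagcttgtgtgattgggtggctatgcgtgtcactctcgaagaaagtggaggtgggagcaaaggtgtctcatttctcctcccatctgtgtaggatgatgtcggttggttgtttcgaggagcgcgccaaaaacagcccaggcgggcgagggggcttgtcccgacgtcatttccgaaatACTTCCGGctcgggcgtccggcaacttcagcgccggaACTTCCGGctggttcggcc
Their differences between LOI(+) and LOI(-) were 0.25, 0.17 and 0.14, and their levels against the reference 1.46, 1.37 and 0.41.

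Other mitochondrial genes were set beside the subunits from written lists, and 0 members of these lists passed the test between LOI(+) and LOI(-). Of 26 measured assembly factors for the respiratory complexes, from 49 written, 22 had the higher mean in LOI(+), with a median difference of 0.10. Their mean deviation was highest on LOI(+) 2, at 0.21, and was -0.031 on LOI(+) 1 and -0.093 on LOI(-) 2. Foxred1, a complex I assembly factor, had 1.14, 1.32 and 1.12 in LOI(+) crypts and 0.74, 0.87 and 0.91 in LOI(-) crypts, with no overlap and a difference of 0.35 ± 0.079. Cox10, needed to make the haem of complex IV, differed by 0.42 ± 0.11, again with no overlap, and each had an adjusted p of 0.800 in limma. Against the reference, the subunits had a median level of 0.48 and the assembly factors that serve them one of -0.11. Of the 26 assembly factors, 10 were called higher, against 31.9% of all features, and 12 lower, against 32.6%.

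Of 16 genes of the tricarboxylic acid cycle, 13 were higher in LOI(+), with a median of 0.16. As with the subunits, the mean deviation was highest on LOI(+) 2, at 0.25, and lowest on LOI(-) 2, at -0.18. It was -0.11 on LOI(+) 1. Pdhb, a subunit of pyruvate dehydrogenase, differed by 0.32 ± 0.13. Of 18 electron and metabolite carriers, 15 were higher, with a median of 0.12, among them the dicarboxylate carrier Slc25a10 at 0.24 ± 0.089 and the oxoglutarate carrier Slc25a11 at 0.37 ± 0.16. The carriers' mean deviation was 0.25 on LOI(+) 2, -0.19 on LOI(-) 2 and -0.12 on LOI(+) 1. Regulators of mitochondrial biogenesis had 8 of 14 higher and a median of 0.013, with Tfam, the mitochondrial DNA packaging and transcription factor, at 0.27 ± 0.070 and the coactivator gene Ppargc1a at -0.17 ± 0.084. In fatty acid beta-oxidation, 7 of 16 were higher and the median was -0.039, with the dehydrogenases Acads at -0.19 ± 0.068 and Hadh at -0.40 ± 0.19. Hadh was lowest on LOI(+) 2, at 1.52, the array that was highest for most subunits.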

How the data were processed

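Per the labels, the Cy3 dye marked the crypt RNA of 6 mice and the Cy5 dye a common reference RNA, with no dye swap. The authors deposited spot intensities of both channels, from the Agilent Feature Extraction software as the file headers give it, and a table of log10 values. Set against the scanner values, that table matched log10 Cy3 minus log10 Cy5 plus a constant per probe, with r of 0.998 or more and a median of 2.90 in each column. It served as an alternative. Each array had 41034 non-control features and 314 negative controls. Accessions were matched to RefSeq (GRCm38.p6): 15429 probes had 1 gene symbol and 25577 had none. A gene with several probes is given by its brightest in Cy3.

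With limma 3.58.1 (R 4.3.3), mean intensity was background-corrected by normexp (offset 50) and loess-normalized within arrays, leaving out outlier flags. The group difference and the level, the mean of both group means against 0, were tested two-sided with lmFit and eBayes, adjusted by Benjamini-Hochberg over all 37939 features at 0.05. The procedure was tested on simulated data. The members and lists were chosen with earlier results of these data known. Named genes were, per complex, the 3 of smallest p between groups and the 2 highest and 2 lowest in level, then the paralogous isoforms, Igf2, and the 2 of smallest p in each further mitochondrial list. Of these, 2 genes are not reported here. The labels give separate mice, with no sex for 2 of them. The alternatives changed the background correction, scaling, filters, choice of probe, model, pairing by number, mice by sex label, and arrays left out.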

Additional observations from a re-analysis of the deposited data

How the results depend on the processing

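Under every alternative run, 0 members were called between LOI(+) and LOI(-), and in the planned ones the count of members with a higher mean in LOI(+) ran from 42 to 62. The number of arrays, 3 per group, limits the precision. With each array left out in turn, the median difference ran from 0.029 to 0.21 over all members, from 0.017 to 0.26 in complex I, from 0.019 to 0.22 in complex II, from 0.075 to 0.23 in complex III, from 0.030 to 0.15 in complex IV and from 0.012 to 0.20 in complex V. With LOI(+) 2 and LOI(-) 2 both left out, chosen after seeing the data, 26 members were higher, the medians were -0.093 in complex I, 0.0053 in complex III and -0.060 in complex V, and Sdhb was at -0.095. Sdhb ran from -0.011 to 0.22 and Sdhc from -0.18 to 0.021 with 1 array left out, and Sdhc was at 0.095 in the mice labelled male. The deviations of same-numbered mice had correlations of mixed sign, at -0.088, -0.25 and 0.35 for numbers 1, 2 and 3. The replicate block gave 0 calls, 58 members higher and a median of 0.11.

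Levels against the reference changed most with median centring. It gave 25 called higher and 27 lower, with no share of all features given beside them. Its medians were -0.011 over all members and -0.20, 0.50, 0.30, -0.072 and 0.057 in complexes I to V. It turned Atp5g2 to -0.47, Cyc1 to -0.28, Cox4i1 to -0.39, Cox6b2 to -0.16, Cox7a2l to -0.22, Cox8a to -0.13 and Cox8b to -0.34. It ended the calls of Atp5g1, at 0.19, Atp5g3, at 0.071, and Cox7b2, at -0.011, and made Atp5d a call, at -0.35. The scanner's processed signals moved the complex IV median to 0.48. Cox8b, near 0, was at -0.012 with no background correction, at -0.045 with the mean of all probes, and from -0.016 to 0.040 with 1 array left out. Atp5g2 was at -0.13 with the mean of all probes, at -0.0080 in LOI(-) mice alone, and from -0.0053 to 0.11 with 1 array left out. In LOI(-) mice alone Cyc1, at 0.081, Cox6b2, at 0.15, and Cox4i2, at -0.28, were no longer called, and without LOI(+) 1 Cox4i1, at 0.16, became a call. The cause of these changes was not tested.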
